A study of Homo sapiens with 12 samples.

Results

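The genes described here encode the aminoacyl-tRNA synthetases, 20 that work in the cytosol and 16 that work in mitochondria. They were chosen by name, as the gene probes on the array whose symbol is one of these 36 genes or its newer form (AARS is now AARS1, for example), by a rule that uses no measured value, though earlier results of these data were known when the group was chosen. The 36 genes had 45 probes, of which 43 passed the filter on dim probes, and these gave a value for 35 of the 36 genes, 20 cytosolic and 15 mitochondrial, among 24251 gene names tested. The mitochondrial methionine enzyme MARS2 was not well above background on any of the 12 arrays and was not tested. All cells were HuH-7, a human hepatocellular carcinoma line whose labelled genotype is p53mutant Y220C in every group, harvested 24 h after treatment with the solvent DMSO, with 28 µM SLMP53-2 or with 42 µM SLMP53-2, a compound the study examined as a reactivator of mutant p53. Each group had 4 arrays, which the labels call biological replicates, and the doses were 2 and 3 times the IC50. The arrays of the higher dose carry 42 µM in their titles and 48 µM in their descriptions, and 42 µM is used throughout. A single cell line was studied, so the results describe the compound in this line only and do not show how other lines respond.

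Each aminoacyl-tRNA synthetase joins one amino acid to the tRNAs that carry its anticodon, which makes the charged tRNAs the ribosome uses. Translation in the cytosol and translation in mitochondria use separate tRNAs and, for most amino acids, enzymes from separate nuclear genes, the mitochondrial one usually written with the suffix 2. GARS and KARS are exceptions, since one gene makes the enzyme of both compartments, and EPRS joins the glutamate and proline enzymes in one protein. When uncharged tRNA or stress in the endoplasmic reticulum leads to phosphorylation of the initiation factor eIF2 alpha, translation of the transcription factor ATF4 rises, and genes of several cytosolic synthetases are known ATF4 targets. ATF4 binds, with partners of the C/EBP family, the C/EBP-ATF response element.

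RefSeq promoter sequences (GRCh38.p14, 250 bases before to 50 after each start) were searched for the core letters of this element, TGATGNAA or, on the other strand, TTNCATCA. The element was found in 7 of the 16 cytosolic genes that had an entry and in 1 of the 14 mitochondrial ones, YARS2. By comparison, 3.62% of all 35116 windows held it, and 4.46% of the 27305 genes did so in at least one window. The stretches around the matches are shown because the genes are later grouped by these letters, and those of EPRS and SARS are shown as genes that rose without a match. Each stretch has 100 bases, written 5′ to 3′ on the strand of the gene, with the matching letters in capitals. A match describes letters and not binding.
AARS: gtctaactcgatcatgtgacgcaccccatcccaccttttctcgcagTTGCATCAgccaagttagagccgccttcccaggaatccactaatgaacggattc
CARS: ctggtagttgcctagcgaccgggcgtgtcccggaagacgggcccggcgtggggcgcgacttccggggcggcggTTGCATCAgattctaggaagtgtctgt
GARS: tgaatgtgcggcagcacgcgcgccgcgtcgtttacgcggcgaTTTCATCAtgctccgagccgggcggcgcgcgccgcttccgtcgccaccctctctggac
IARS: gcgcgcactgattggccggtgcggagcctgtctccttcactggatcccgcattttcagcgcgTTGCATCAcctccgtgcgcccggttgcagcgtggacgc
MARS: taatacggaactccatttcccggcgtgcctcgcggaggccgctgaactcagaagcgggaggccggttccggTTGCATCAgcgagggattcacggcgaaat
NARS: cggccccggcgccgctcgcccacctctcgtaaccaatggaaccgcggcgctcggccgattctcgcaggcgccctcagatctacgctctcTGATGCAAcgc
TARS: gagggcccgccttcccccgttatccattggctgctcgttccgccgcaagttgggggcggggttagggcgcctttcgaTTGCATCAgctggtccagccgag
YARS2: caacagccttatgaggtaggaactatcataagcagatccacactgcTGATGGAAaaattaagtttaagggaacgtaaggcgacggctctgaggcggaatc
EPRS: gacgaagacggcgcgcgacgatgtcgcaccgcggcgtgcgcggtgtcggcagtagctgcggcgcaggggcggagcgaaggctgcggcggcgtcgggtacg
SARS: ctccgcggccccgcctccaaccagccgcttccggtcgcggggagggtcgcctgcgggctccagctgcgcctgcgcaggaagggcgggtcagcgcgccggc

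The stretch of AARS (alanine) lies at chr16:70289640-70289739, minus strand, with the first matching base at -187 from the start. Those of the other cytosolic genes with a match lie at chr11:3057399-3057498, minus strand for CARS (cysteine), chr7:30594803-30594902, plus strand for GARS (glycine), chr9:92293673-92293772, minus strand for IARS (isoleucine), chr12:57487993-57488092, plus strand for MARS (methionine), chr18:57621812-57621911, minus strand for NARS (asparagine) and chr5:33440890-33440989, plus strand for TARS (threonine). In these 6 genes the first matching base lay between -33 and +15, against -197 in YARS2 (tyrosine, chr12:32756041-32756140, minus strand). AARS, CARS, IARS, MARS and TARS shared the same 8 letters, TTGCATCA. NARS had the same letters in the other orientation, TGATGCAA, and GARS had TTTCATCA and YARS2 TGATGGAA. The stretches of EPRS (chr1:220046481-220046580, minus strand) and SARS (serine, chr1:109213818-109213917, plus strand) held no match, nor did the rest of their windows.

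The values are log2 intensities after background correction and quantile normalization, so a difference on this scale compares one probe between arrays, relative to the other transcripts. Levels of different probes cannot be set against each other. In RNA from a whole culture, fewer cells that express a gene and less RNA per cell cannot be told apart. Between 65.0% and 85.0% of the gene spots of an array were well above background, and no probe of a synthetase was saturated. The hepatocyte markers were detected for 8 of 8 genes on all 12 arrays, and of 8 markers of other cell types 3 (CD68, COL3A1 and VWF) were detected on all 12, while the leukocyte marker PTPRC was detected on none. The probes of these 3 were dim, with mean log2 values of 7.21, 6.36 and 6.47. Other probes of COL3A1 were detected on 3 and 0 arrays, and another of VWF on 2. The arrays lay on 5 slides. Over the cytosolic synthetases, the median log2 value minus the DMSO mean was 0.22 on replicate 4 of the 28 µM group. It was 0.28, 0.49 and 0.39 on the other 3 arrays of that dose, though not every gene was lowest on replicate 4. Earlier results of these data had found that array close to DMSO, so results at 28 µM are given with and without it.

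At 42 µM the transcripts of 7 cytosolic synthetases rose and none of the mitochondrial ones did. The 7 were AARS, SARS, MARS, CARS, TARS, IARS and EPRS, and their log2 fold changes against DMSO ran from 0.72 in EPRS to 1.55 in AARS. A gene was called when its log2 fold change reached 0.6 in size and its limma p, adjusted by Benjamini-Hochberg over all probes, was below 0.05. By this rule 7 of 20 cytosolic genes, 35%, were called higher, against 381 genes or 1.57% of all genes tested, and none was called lower, against 346 genes or 1.43%. Of the 15 mitochondrial genes 0 were called by limma in either direction, and at an unadjusted p below 0.05 with the same limit of size 0 passed, against 10 cytosolic genes, all higher, and 3.16% of all genes on the higher side. The median log2 fold change was 0.61 over the 20 cytosolic genes, 0.01 over the 15 mitochondrial genes and -0.02 over all genes. The cytosolic value was above 0 in 15 genes and below 0 in 5, the mitochondrial value above 0 in 8 and below 0 in 7.

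**Figure D1:**
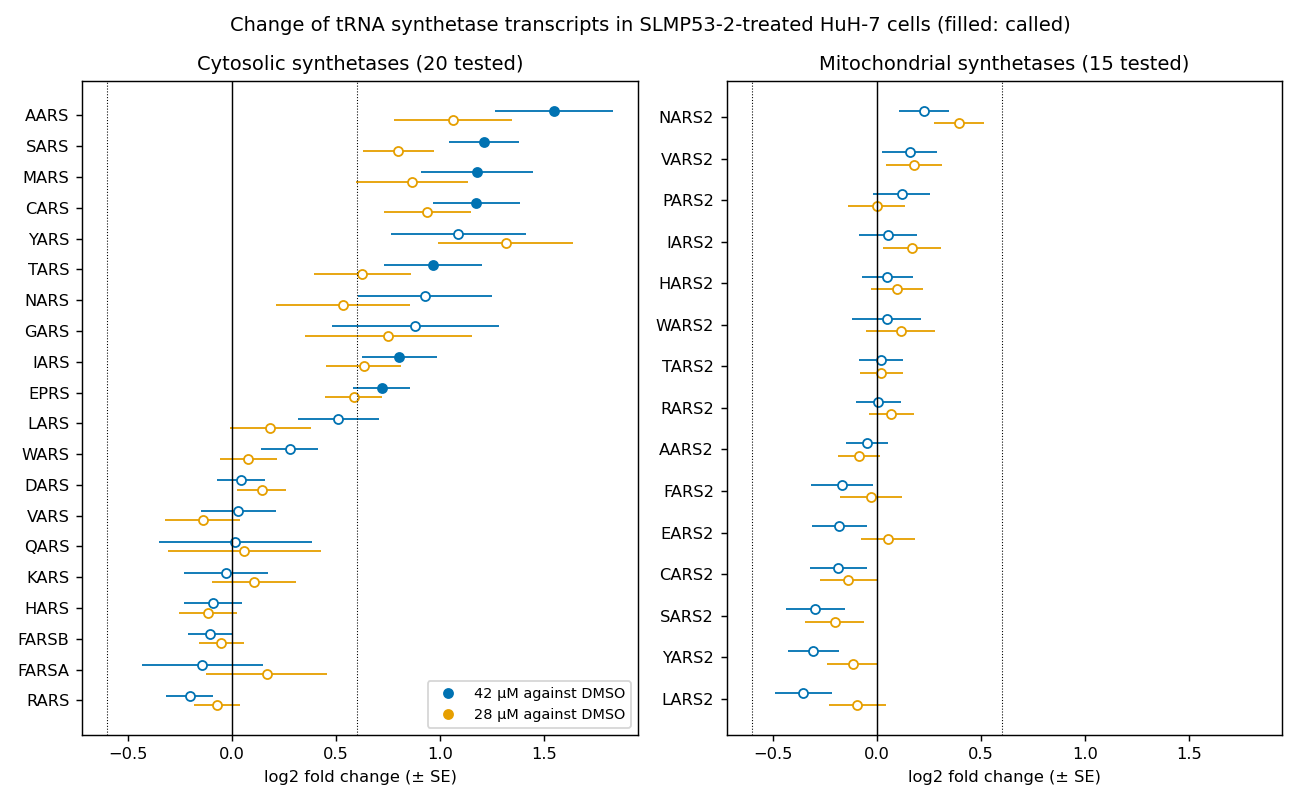
Log2 fold change against DMSO (horizontal axis, with bars of 1 SE) of each synthetase at 28 µM and 42 µM, cytosolic genes in one panel and mitochondrial genes in the other; filled points passed the test and dotted lines mark 0.6 and -0.6. The 7 filled points lie at 42 µM in the cytosolic panel, between 0.72 and 1.55, while all mitochondrial points lie between the dotted lines.

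The plot of fold changes by compartment shows that the SE, which comes from the spread between arrays over all 3 groups, tended to be smaller in the mitochondrial genes. The SE of the 42 µM change ran from 0.102 to 0.166 over the mitochondrial genes (median 0.133) and from 0.107 to 0.401 over the cytosolic genes (median 0.199). Without 28 µM replicate 4 these medians were 0.126 and 0.161. The SD over the 4 DMSO arrays had medians of 0.125 and 0.181. The 95% confidence interval of the change at 42 µM had its upper bound below 0.6 in 15 of 15 mitochondrial genes, and in 14 of 15 the whole interval lay between -0.6 and 0.6. The exception was LARS2, with an interval from -0.65 to -0.06. Among cytosolic genes the interval lay within these limits in 7 of 20.

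The largest change was that of AARS, the alanine enzyme, whose probe lies at chr16:70287876-70287935 (hg19, minus strand). Its log2 values were 9.81, 9.70, 10.60 and 10.30 on the DMSO arrays, 10.83, 11.44, 11.57 and 10.83 at 28 µM, and 10.85, 12.17, 11.70 and 11.87 at 42 µM. Every treated array was above every DMSO array, and replicate 1 of 42 µM was the lowest of its group. The change at 42 µM was 1.55 ± 0.28 (SE, n = 4 per group), with an adjusted p of 0.0160 from limma. SARS, the serine enzyme, gave 10.67, 10.36, 10.79 and 10.54 with DMSO, 11.39, 11.40, 11.71 and 11.06 at 28 µM, and 11.63, 12.24, 11.63 and 11.71 at 42 µM. Here too no treated array reached down to the DMSO range. The change of SARS was 1.21 ± 0.17 (limma, adjusted p = 0.0112).

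MARS loads methionine, including that of the initiator tRNA. Its log2 values were 9.26, 9.08, 10.06 and 9.86 with DMSO and 10.14, 11.20, 10.94 and 10.70 at 42 µM, so that the lowest treated array lay just above the highest control. The spread within each group was wide (SD 0.47 and 0.45), and the change was 1.18 ± 0.27 (limma, adjusted p = 0.0338). At 28 µM MARS was at 9.97, 10.80, 10.71 and 10.24, and replicate 1 lay inside the DMSO range. CARS, the cysteine enzyme, measured 7.10, 7.34, 7.29 and 7.64 with DMSO and 8.51, 8.51, 8.33 and 8.72 at 42 µM. These groups were well separated, and the change was 1.17 ± 0.21 (limma, adjusted p = 0.0155). At 28 µM CARS was at 8.60, 8.68 and 8.25 on 3 arrays and at 7.59 on replicate 4, which lay inside the DMSO range.

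TARS charges the threonine tRNAs and measured 11.23, 11.34, 11.07 and 11.07 with DMSO and 12.55, 12.19, 12.11 and 11.72 at 42 µM. IARS, for isoleucine, measured 12.63, 12.87, 12.89 and 12.83 with DMSO and 13.92, 13.84, 13.46 and 13.21 at 42 µM. EPRS, for glutamate and proline, measured 12.20, 12.15, 12.40 and 12.31 with DMSO and 13.16, 13.06, 12.94 and 12.78 at 42 µM. In all 3 genes the DMSO arrays were close together (SD 0.11 to 0.13), the groups did not overlap, and replicate 4 was the lowest of the 42 µM arrays. The changes were 0.97 ± 0.24 for TARS (limma, adjusted p = 0.0433), 0.80 ± 0.18 for IARS (0.0314) and 0.72 ± 0.14 for EPRS (0.0166).

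These calls sit near the threshold of the adjusted p. With the slide as a block 0 of the 7 were called by limma, as were 0% of all genes on the higher side, with log2 fold changes from 0.74 to 1.49 and a lowest adjusted p of 0.0558, while 10 cytosolic genes and 786 of all genes were higher at an unadjusted p below 0.05 with the limit of size. With the slide as a random block all 7 were called, against 1.99% of all genes. Without DMSO replicate 2, or without 42 µM replicate 2, limma also called 0 (lowest adjusted p 0.0506 and 0.0519, with 9 cytosolic genes in each at an unadjusted p below 0.05 with the limit of size), and in both it called 0 of all 24251 genes, of which 740 and 664 were higher at an unadjusted p below 0.05 with that limit. Without DMSO replicate 1 it called 1, SARS, against 0.441% of all genes. Without 42 µM replicate 3, or without DMSO replicate 4, it called 4, against 0.957% and 0.52% of all genes, and without 28 µM replicate 4, which enters through the shared estimate of spread, it called 8, against 2.23%. Over 26 alternatives in all, the call was kept in 23 for SARS, 22 each for AARS and CARS, 19 for EPRS, 18 for MARS, 15 for IARS and 13 for TARS, and no change of these 7 turned its direction.

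Of the 8 other cytosolic genes above 0 at 42 µM, none of which passed the test, 5 had changes of 0.28 or more and are named here after their values were seen. YARS, the tyrosine enzyme, measured 8.61, 8.47, 9.27 and 8.74 with DMSO, 9.33, 10.52, 10.42 and 10.07 at 28 µM, and 9.01, 10.16, 9.68 and 10.58 at 42 µM. Its change was 1.09 ± 0.33 (limma, adjusted p = 0.0960), and 42 µM replicate 1 lay inside the DMSO range. The asparagine enzyme NARS measured 11.00, 11.66, 10.72 and 11.57 with DMSO and 12.57, 11.86, 12.05 and 12.18 at 42 µM, with no overlap and a change of 0.93 ± 0.32 (limma, adjusted p = 0.159). The probe of GARS was well above background on 8 of the 12 arrays, 2 of them DMSO arrays, and its 42 µM values of 8.05, 6.95, 6.05 and 7.16 included one within the DMSO range of 5.99 to 6.34. The change of GARS was 0.88 with a 95% interval from 0.01 to 1.74 (limma, adjusted p = 0.314). LARS, for leucine, gave 0.51 (interval 0.09 to 0.93, adjusted p = 0.205) with groups that did not overlap, and WARS, for tryptophan, gave 0.28 (adjusted p = 0.364).

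The remaining cytosolic genes stayed between -0.20 and 0.04 at 42 µM. QARS, the glutamine enzyme, was the least precise of them, with 9.16, 8.75, 10.04 and 9.77 on the DMSO arrays and 8.64, 9.22, 9.88 and 10.04 at 42 µM. The 2 groups overlapped over most of their range, and the interval of the change of 0.02 ran from -0.77 to 0.81, an interval that contains the change of IARS. VARS, for valine, measured 10.73, 10.52, 10.93 and 10.72 with DMSO and 10.33, 11.06, 10.79 and 10.85 at 42 µM (change 0.03, interval -0.36 to 0.42). KARS, the lysine enzyme of both compartments, measured 8.23, 8.67, 9.09 and 9.13 with DMSO and 8.71, 8.72, 8.78 and 8.78 at 42 µM (change -0.03, interval -0.47 to 0.41). In neither gene did the groups separate.

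A value below DMSO was found for KARS, HARS, FARSB, FARSA and RARS, and none passed the test. RARS, the arginine enzyme, had the lowest change, -0.20 (interval -0.45 to 0.04, limma adjusted p = 0.430), from 13.77, 13.52, 13.69 and 13.54 with DMSO to 13.41, 13.53, 13.38 and 13.37 at 42 µM. The groups of RARS overlapped through one treated array, at 13.53, above the lowest control. HARS, for histidine, measured 11.90, 11.51, 11.69 and 11.76 with DMSO and 11.44, 11.59, 11.83 and 11.61 at 42 µM (change -0.09, interval -0.40 to 0.21). FARSA and FARSB encode the subunits of one phenylalanine enzyme. FARSB measured 13.59, 13.43, 13.54 and 13.38 with DMSO and 13.32, 13.39, 13.49 and 13.32 at 42 µM (change -0.11, interval -0.34 to 0.12). FARSA was far more variable, with 10.99, 10.74, 11.23 and 10.20 against 10.70, 11.25, 9.83 and 10.80 (change -0.14, interval -0.77 to 0.48).

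The mitochondrial counterparts of the genes that rose had 42 µM changes between -0.29 and 0.12, and none passed the test. AARS2 measured 10.13, 10.08, 10.16 and 10.03 with DMSO and 10.00, 9.91, 10.25 and 10.05 at 42 µM, a change of -0.05 (interval -0.27 to 0.17). SARS2 measured 9.87, 9.58, 9.75 and 9.68 with DMSO and 9.21, 9.43, 9.56 and 9.51 at 42 µM, a change of -0.29 (interval -0.60 to 0.01). All 42 µM arrays of SARS2 were below all DMSO arrays, whereas those of SARS were all above. CARS2 measured 13.76, 13.48, 13.47 and 13.40 with DMSO and 13.28, 13.26, 13.68 and 13.15 at 42 µM, a change of -0.18 (interval -0.48 to 0.11) with overlapping groups.

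TARS2 measured 9.87, 9.89, 9.70 and 9.87 with DMSO and 9.78, 9.73, 10.04 and 9.86 at 42 µM. IARS2 measured 11.27, 11.21, 11.53 and 11.29 with DMSO and 11.07, 11.45, 11.52 and 11.48 at 42 µM. Neither differed by more than its own spread, with changes of 0.02 and 0.05. EPRS has 2 counterparts. The glutamate enzyme EARS2 measured 8.30, 8.44, 8.22 and 8.15 with DMSO and 8.40, 8.01, 7.94 and 8.04 at 42 µM (change -0.18, interval -0.46 to 0.10). The proline enzyme PARS2 measured 9.81, 9.64, 9.59 and 9.33 with DMSO and 9.85, 9.70, 9.60 and 9.70 at 42 µM (change 0.12, interval -0.18 to 0.41). Both overlapped with DMSO. RARS2, with 13.35, 13.18, 13.33 and 13.27 against 13.26, 13.32, 13.27 and 13.32, had the smallest mitochondrial change, 0.01.

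The lowest mitochondrial changes at 42 µM were those of LARS2, YARS2 and SARS2, which did not pass the test. LARS2 was at 10.07, 10.11, 10.19 and 10.11 with DMSO and at 9.76, 9.98, 9.61 and 9.71 at 42 µM (change -0.35, limma adjusted p = 0.211), and YARS2 was at 10.49, 10.35, 10.44 and 10.46 with DMSO and at 10.09, 10.23, 10.09 and 10.11 at 42 µM (change -0.30, adjusted p = 0.240). In these 3 of 15 genes the 42 µM arrays lay entirely below DMSO, against 7.01% of all genes, and in 0 of 15 entirely above. Among the cytosolic genes 9 of 20 lay entirely above DMSO, against 5.93% of all genes, namely the 7 that were called and NARS and LARS.

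**Figure D2:**
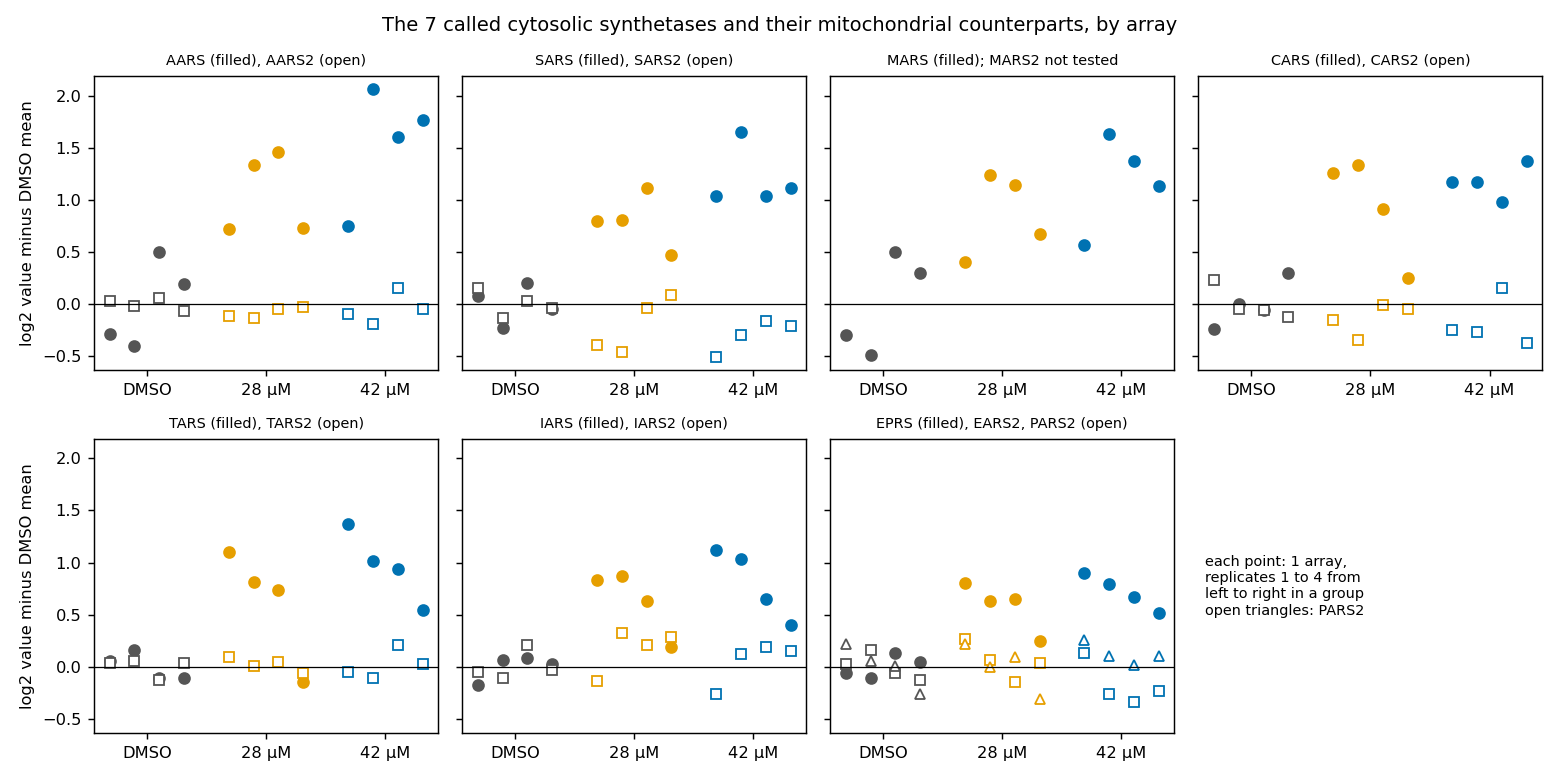
Log2 value of each array minus the DMSO mean of the same probe (vertical axis) for the 7 cytosolic genes that rose (filled) and their mitochondrial counterparts (open, with triangles for PARS2), by group. All 42 µM arrays of the filled genes lie above their DMSO arrays, and the open symbols of treated arrays lie between -0.51 for SARS2 and 0.32 for IARS2. MARS2 was not tested.

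Pairs of enzymes for the same amino acid were set side by side with each gene as its change against its own DMSO arrays, as in the plot of pairs by array. The cytosolic gene had the higher 42 µM change in 13 of 16 pairs, by 0.6 or more in 9, with a median difference of 0.72. The widest differences were 1.59 between AARS and AARS2, 1.51 between SARS and SARS2, 1.39 between YARS and YARS2 and 1.36 between CARS and CARS2. The order was the other way for valine (-0.13), histidine (-0.15) and arginine (-0.21). EPRS entered with both EARS2 and PARS2, and FARS2 with both FARSA and FARSB, so the pairs are not all made of separate genes. The phenylalanine pairs counted as higher by 0.02 (FARSA) and 0.06 (FARSB), though these genes changed by -0.14 and -0.11 and FARS2 by -0.16. These differences were not themselves tested, and all pairs share the same 12 arrays.

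At 28 µM the values leaned the same way but limma called 0 of the 35 genes, as it called 0 of all genes (0%). The lowest adjusted p of a synthetase was 0.175, and 7 cytosolic and 0 mitochondrial genes had an unadjusted p below 0.05 with the limit of size, against 1.46% of all genes on the higher side. The median change was 0.36 over the cytosolic and 0.02 over the mitochondrial genes, and the highest changes were those of YARS (1.32), AARS (1.06), CARS (0.94), MARS (0.86) and SARS (0.80). The 28 µM arrays lay entirely above DMSO for IARS, EPRS, SARS, AARS and YARS, and for NARS2 among the mitochondrial genes, 5 of 20 and 1 of 15 against 2.78% of all genes. NARS2 measured 9.81, 10.11, 10.21 and 10.16 with DMSO and 10.37, 10.66, 10.41 and 10.44 at 28 µM (change 0.40, adjusted p = 0.248).

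The calls at 28 µM depended on replicate 4. On that array TARS was at 11.03 and NARS at 10.76, against 11.91 to 12.28 and 11.65 to 12.35 on the other 3, and IARS was at 13.00 against 13.44 to 13.67. Not all genes were lowest there: YARS was at 10.07 against 9.33 on replicate 1, and QARS, at 10.14, was at its highest. Earlier results of these data had found that array close to DMSO, and it was left out for that reason. Leaving it out favours calls, so the calls made without it are no separate evidence for a change at 28 µM. Without it limma called 5 cytosolic genes higher at 28 µM, CARS (1.17, adjusted p = 0.00300), EPRS (0.70, 0.0126), SARS (0.91, 0.0161), TARS (0.88, 0.0217) and IARS (0.78, 0.0318), against 1.44% of all genes called higher and 0.986% called lower. All 5 were among the 7 called at 42 µM, with which they share the DMSO arrays. AARS (1.17, adjusted p = 0.0705) and MARS (0.93, 0.144) did not pass, and of the 15 mitochondrial genes limma called 0. The medians without the array were 0.54 and 0.05, and 8 cytosolic genes (those 5, AARS, YARS and GARS) lay entirely above DMSO, against 7.45% of all genes. Of the 15 mitochondrial genes 1, NARS2, lay entirely above DMSO. Entirely below were 2, LARS2 and YARS2, against 7.97% of all genes.

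**Figure D3:**
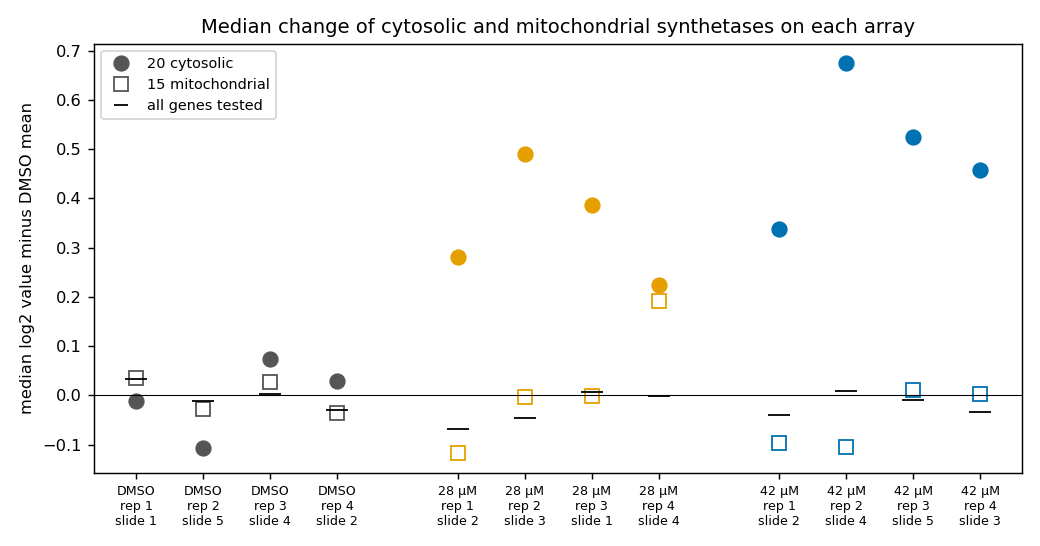
Median over genes of the log2 value minus the DMSO mean (vertical axis) on each of the 12 arrays, for the 20 cytosolic synthetases, the 15 mitochondrial ones and all genes tested. The cytosolic median is above 0 on all 8 treated arrays, from 0.22 to 0.67, and the mitochondrial median stays between -0.12 and 0.19.

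Array by array, the cytosolic median was 0.34, 0.67, 0.52 and 0.46 at 42 µM and 0.28, 0.49, 0.39 and 0.22 at 28 µM, where the DMSO arrays ran from -0.11 to 0.07. The mitochondrial median ran from -0.11 to 0.01 at 42 µM and from -0.12 to 0.19 at 28 µM, as the plot of medians by array shows. The distance between the compartments was 0.43 to 0.78 at 42 µM and 0.39 to 0.49 on 3 arrays at 28 µM, but 0.03 on replicate 4, where 15 of 20 cytosolic and 10 of 15 mitochondrial genes were above their DMSO mean. Within the slides that held both groups, the cytosolic median of 42 µM minus DMSO was 0.39, 0.72 and 0.55 and the mitochondrial one -0.05, -0.10 and 0.13. At 28 µM the within-slide cytosolic medians were 0.60, 0.42 and, on the slide with replicate 4, 0.12, against -0.07, -0.02 and 0.08 for the mitochondrial genes. Among the 7 genes called, AARS and MARS varied most between slides at 42 µM, with 0.55, 1.56 and 2.00 for AARS and 0.28, 1.13 and 1.86 for MARS, whereas SARS gave 1.08, 1.45 and 1.27.

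The 2 doses did not separate for any synthetase. Between 42 µM and 28 µM limma called 0 of the 35, as it called 0 of all genes (0%), and 0 synthetases passed an unadjusted p below 0.05 with the limit of size, against 27 genes higher and 46 lower of all genes. The one interval of a cytosolic gene that did not include 0 was that of SARS, with a difference of 0.41 (interval 0.05 to 0.78), while AARS gave 0.48 with an interval from -0.13 to 1.10. The median difference was 0.15 over the cytosolic and -0.07 over the mitochondrial genes, and 0.04 and -0.03 without replicate 4 of 28 µM.

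The genes that rose were spread over both structural classes of the enzymes, which differ in the fold of their catalytic domain. Among 9 class I genes 3 were called at 42 µM (MARS, CARS and IARS, class median 0.51), among 10 class II genes 3 (AARS, SARS and TARS, median 0.46), and EPRS holds a domain of each class. Of the 8 genes whose enzymes sit in the cytosolic multisynthetase complex, 3 were called (MARS, IARS and EPRS) with a median of 0.28, and of the 12 outside it 4 were called with a median of 0.90. None of these splits was tested.

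**Figure D4:**
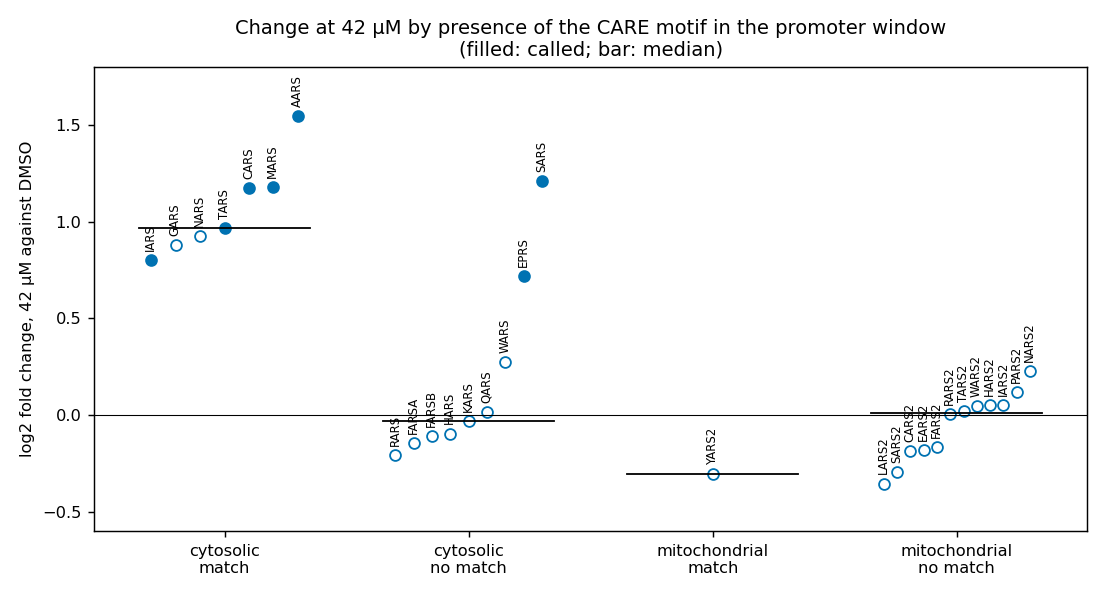
Log2 fold change at 42 µM (vertical axis) of each synthetase, grouped by compartment and by whether its promoter window held the core of the C/EBP-ATF response element; filled points passed the test and bars are medians. The 7 cytosolic genes with the letters lie between 0.80 and 1.55, and the 9 without have a median of -0.03.

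The 7 cytosolic genes with the letters TGATGNAA in their promoter window all had a 42 µM change above 0, from 0.80 to 1.55 with a median of 0.97, and 5 of them were called. In the plot of changes by promoter letters, the 9 cytosolic genes without them had a median of -0.03, with 4 above 0 and 2 called, SARS and EPRS. GARS and NARS carried the letters and did not pass the test. At 28 µM the medians were 0.75 and 0.08, and without replicate 4 they were 0.93 and -0.04. Among the mitochondrial genes the 12 tested genes without the letters had a median of 0.01, and YARS2, the one with them, changed by -0.30 without passing the test. No entry was found for DARS, LARS, VARS, YARS, AARS2 and VARS2. These counts are a description, since the genes share the same arrays and the association was not tested.

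The core letters bound by NRF1, a regulator of genes for mitochondrial proteins, were searched in the same way as GCGCATGC on both strands. They were found in MARS2 and YARS2 and in 3.05% of all windows, and in no cytosolic synthetase with an entry. HARS and HARS2 are neighbours on opposite strands of chromosome 5, with starts at 140691370 and 140691455 (GRCh38.p14), 85 bases apart. Neither passed the test, with changes of -0.09 for HARS and 0.05 for HARS2 at 42 µM.

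For some genes a dimmer second probe was tested too, and it need not read the same transcripts. The second probe of MARS gave 0.77 ± 0.59 at 42 µM (limma, adjusted p = 0.621), and that of SARS, which is placed on a non-coding variant, gave 0.68 (adjusted p = 0.0925). The second probe of LARS gave 0.61 (adjusted p = 0.595), and those of HARS, FARSB, CARS2, PARS2 and VARS2 lay between -0.29 and 0.15 without passing the test.

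Other genes of tRNA charging and of the response to uncharged tRNA were looked at as a list of 25, of which 24 were tested. At 42 µM 1 of 24 was called higher (ATF4) and 1 lower (GATC), against 1.57% and 1.43% of all genes, with a median of 0.05, 13 above 0 and 11 below. ATF4 measured 15.70, 15.78, 15.81 and 15.72 with DMSO, 16.60, 16.16, 16.37 and 16.11 at 28 µM, and 16.60, 16.62, 16.44 and 16.38 at 42 µM, so that no treated array reached the DMSO range. Its change was 0.76 ± 0.12 (limma, adjusted p = 0.0125), and the call was kept in 20 of the 26 alternatives. Without DMSO replicate 2 and without 42 µM replicate 2 the adjusted p of ATF4 was 0.0506 and 0.0586, and blocking on the slide gave 0.0558.

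GATC, a subunit of the mitochondrial amidotransferase that makes glutamine-charged tRNA where no mitochondrial glutamine enzyme exists, measured 9.01, 8.91, 8.77 and 8.86 with DMSO and 8.24, 8.29, 8.26 and 8.38 at 42 µM. All 42 µM arrays were below all controls. The change of -0.60 ± 0.12 (limma, adjusted p = 0.0220) was at the limit of size, and the call was kept in 13 of the 26 alternatives, with an adjusted p of up to 0.0785 when 1 array was left out, reached without 42 µM replicate 2. The other members of the list, among them the 3 scaffold proteins of the multisynthetase complex and 6 that deliver charged tRNA to the ribosome, were not called. XPOT, which exports tRNA from the nucleus, gave 0.50 (adjusted p = 0.0770), and DTD1, which removes wrongly attached D-amino acids, gave 0.62 (adjusted p = 0.131). At 28 µM limma called 0 of the 24, and without replicate 4 ATF4 was called (0.62, adjusted p = 0.0239).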

How the data were processed

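RNA from 12 cultures was labelled with 1 dye and measured on Agilent arrays. The authors deposited the scanner output of the arrays, with the mean and local background intensity of the spots and their flags for detection, saturation and outliers (Agilent Feature Extraction 10.7.3.1 per the submitters' processing notes). A deposited table of log2 values, which the authors had corrected for background by the Edwards method and normalized by quantiles, served as an alternative. Probe positions are in hg19.

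Each array held 43376 gene spots, and outliers among them were removed. Following the study's methods, intensities were corrected by the Edwards method and quantile normalized with limma 3.58.1 (R 4.3.3), and spots of 1 probe were averaged on the log2 scale. Probes below background on 3 or more of the 4 arrays in every condition were dropped, which left 33467 of 41000 gene probes. For 28078 probes the name came from the RefSeq accession, and otherwise from the array's design. The brightest tested probe stood for a gene, so the values of a gene with several probes come from 1 of them.

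The 3 groups were fitted together over 12 arrays with lmFit and eBayes of limma, two-sided and with Benjamini-Hochberg adjustment over all probes tested. The call needed a log2 fold change of 0.6 or more in size with an adjusted p below 0.05, the limits in the study's results, where its methods name a larger limit of size. The 95% intervals come from the same fit and are not adjusted. Both contrasts with DMSO share the DMSO arrays. Precision is set by the number of arrays, and p-values measure the spread between cultures of 1 cell line. The steps were tested on simulated data. Alternatives covered the background correction, the scaling, the filter, the limit of size, the choice of probe, the slide, the replicate number, array weights, the arrays fitted and leaving out each array.

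Values on every array were given for cytosolic genes called at 42 µM, their mitochondrial counterparts, the 3 genes of each compartment with the smallest change and cytosolic genes below DMSO. The members, the lists and these rules were chosen with earlier results of these data known. Promoter sequences are those of RefSeq on GRCh38.p14, and a gene with several starts counted as a match when any window matched. Protein sequences were not used here.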

Additional observations from a re-analysis of the deposited data

Results flagged for a closer look

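Single arrays stood apart from the other 3 of their group in 5 of 111 groups of 4 arrays, where the gap to the nearest value, over the range of the group, exceeded Dixon's critical value. Chance gives about 1 in 20 such groups. SARS was at 12.24 on 42 µM replicate 2, against 11.63, 11.63 and 11.71. Without that array the change of SARS was 1.06 (limma, adjusted p = 0.0519), and limma called 0 of all 24251 genes, while an unadjusted p below 0.05 with the limit of size was met by 664 genes on the higher side and 498 on the lower. YARS2 was at 10.23 on the same array, against 10.09 to 10.11. On 42 µM replicate 1, HARS2 was at 10.94 against 11.14 to 11.17, and IARS2 was at 11.07 against 11.45 to 11.52. TARS2 was at 9.70 on DMSO replicate 3, against 9.87 to 9.89.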

How the results depend on the processing

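Of the 7 genes called at 42 µM, 4 were called when the Edwards values were scaled to the 75th percentile, 4 with a log2 limit of 1, 3 with the processed signal scaled to the 75th percentile and 0 with the slide as a block. Leaving out 1 array gave 0 to 8 calls at 42 µM, 0 to 5 at 28 µM (5 without 28 µM replicate 4) and 0 to 0 between the doses. The cytosolic median at 28 µM was 0.36, with 0.18 under the stricter filter and 0.30 to 0.54 when 1 array was left out. This median fell in a gap between LARS, at 0.18, and NARS, at 0.53. The loss of any 1 gene at or above NARS moves it to the value of LARS, with no change in the other genes. At 42 µM the cytosolic median of 0.61 became 0.45 with the scaled Edwards values and 0.46 with the scaled processed signal, and the mitochondrial median of 0.01 became -0.11 and -0.17. Both scalings also moved the split of calls over all genes, from 381 higher and 346 lower to 256 and 421 and to 206 and 283. Under these 2 scalings some uncalled genes changed sign: DARS gave -0.062 and -0.048 at 28 µM and -0.18 and -0.20 at 42 µM, RARS2 -0.12 and -0.088 at 28 µM and -0.23 and -0.24 at 42 µM, and HARS2 -0.085 at 42 µM with the processed signal. No mitochondrial gene was called in any of the 26 alternatives.

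With a replicate block, 8 genes were called at 42 µM (YARS added, limma adjusted p = 0.0360) and 0 at 28 µM. Over all genes the block gave 622 called higher and 488 lower at 42 µM, against 381 and 346 without it. The deviations of arrays with the same number correlated from -0.464 to 0.618, with 7 of 12 pairs above 0.1. Of the 12 arrays 5 correlated best with their own number. These values do not settle whether the numbers pair the arrays.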
